A study of Mus musculus with 157 samples.

Results

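The genes described here are those of the cell division cycle: cyclins and their kinases, the machinery that licenses and copies DNA, and the proteins of the mitotic spindle and of cytokinesis. They were taken from a list of 47 Ensembl identifiers (given below as in the table, with the probe set ending _at), of which 45 had a row among the 23176 genes measured. Scores of Ccnb1 (cyclin B1) and Pcna (the replication clamp) were not analysed here, and only their promoters were used. Liver RNA came from male mice of 157 pre-Collaborative Cross strains, which were partly inbred and carried mixed genomes of 8 founders: the wild-derived WSB/Ei, PWK/Ph and CAST/Ei and the laboratory strains C57BL/6J, A/J, 129S1/SvImJ, NZO/H1LtJ and NOD/LtJ. A strain was represented by a single mouse and a single Affymetrix array, so that strain, environment and array error are mixed in every value. All mice shared a diet and a 3-week programme with alcohol exposure and exercise before they were killed at 12 to 15 weeks of age; the labels do not assign treatments to mice, and these were not analysed here. Kill dates fell into 10 cohorts, numbered by date, of 20, 21, 11, 5, 6, 10, 37, 22, 12 and 13 mice, and their RNA was hybridized in 8 batches of 11 to 24 arrays. Every batch held mice of 6 to 10 cohorts.

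Each deposited value is a score that ranks the 157 mice for 1 gene, on a normal scale that runs from -2.49 to 2.49. A score of 0 marks the middle mouse, and 1 unit is about 1 SD of that gene over the mice. The scores hold no expression level, so that levels of different genes cannot be set against each other, and the liver identity of the samples could not be checked by the level of hepatocyte genes. In a bulk sample such as these, fewer dividing cells and less RNA per dividing cell cannot be told apart. Arrays differed as wholes: the median score of all genes on an array ran between -0.281 and 0.391.

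Cells that leave the resting state pass through G1, where D and E cyclins and E2F factors act, then replicate their DNA from origins licensed by the MCM helicase, and divide under the control of Cdk1 with cyclins A and B. Many genes for S phase carry E2F sites, whereas many genes for G2 and mitosis carry CCAAT boxes and a cell cycle homology region (CHR). Through these the DREAM complex represses them in resting cells, and B-Myb and Foxm1 act in dividing cells. Most hepatocytes of an adult liver are resting, and the organ returns to the cycle after injury or partial removal; resident and blood-borne non-parenchymal cells also divide there.

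Promoters of some members that led, lagged or were called in the tests below are shown so that these elements can be seen in place. Lagging members with a CHR match (Ccnb2, Rrm2 and Ccne1) are not among those shown. RefSeq promoter windows of 300 bases (250 before and 50 after the transcription start, GRCm38.p6) were used for 39 of the 47 listed genes, matched by symbol. Ccnb1 and Pcna are among these and count as members in the promoter shares. No promoter was used for Tpx2, Ccne2, Foxm1, Mcm4, Aurkb, Ccnd1, Kif20a and Ccna2. In the lines below capitals mark matches on either strand to CCAAT, to the CHR (TTTGAA or TTTAAA, of which the second is its own reverse complement) or to an E2F site (TTTCCCGC, TTTCGCGC, TTTGCCGC or TTTGGCGC); neighbouring matches may overlap. The windows are chr11:99024140-99024439 on the minus strand for Top2a, chr7:80294201-80294500 on the plus strand for Prc1, chr7:135716330-135716629 on the minus strand for Mki67, chr10:69352863-69353162 on the minus strand for Cdk1, chr7:102441445-102441744 on the plus strand for Rrm1 and chr8:122567765-122568064 on the plus strand for Cdt1.
Top2a: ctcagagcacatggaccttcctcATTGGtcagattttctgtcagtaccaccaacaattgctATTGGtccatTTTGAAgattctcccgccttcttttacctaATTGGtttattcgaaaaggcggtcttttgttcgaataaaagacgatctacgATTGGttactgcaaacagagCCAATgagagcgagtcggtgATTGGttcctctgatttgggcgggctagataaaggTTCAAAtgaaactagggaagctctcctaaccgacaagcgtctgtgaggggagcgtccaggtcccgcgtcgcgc
Prc1: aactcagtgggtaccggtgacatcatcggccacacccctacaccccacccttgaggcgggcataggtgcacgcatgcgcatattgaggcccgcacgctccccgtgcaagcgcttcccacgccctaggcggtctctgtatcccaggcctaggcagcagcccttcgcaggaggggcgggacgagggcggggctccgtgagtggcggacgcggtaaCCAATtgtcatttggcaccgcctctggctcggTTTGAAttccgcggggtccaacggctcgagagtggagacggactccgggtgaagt
Mki67: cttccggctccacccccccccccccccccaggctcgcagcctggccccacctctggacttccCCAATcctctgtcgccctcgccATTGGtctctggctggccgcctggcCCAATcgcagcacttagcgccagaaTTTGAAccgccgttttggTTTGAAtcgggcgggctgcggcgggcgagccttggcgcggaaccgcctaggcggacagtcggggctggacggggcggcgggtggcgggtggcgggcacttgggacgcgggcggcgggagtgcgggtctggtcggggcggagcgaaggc
Cdk1: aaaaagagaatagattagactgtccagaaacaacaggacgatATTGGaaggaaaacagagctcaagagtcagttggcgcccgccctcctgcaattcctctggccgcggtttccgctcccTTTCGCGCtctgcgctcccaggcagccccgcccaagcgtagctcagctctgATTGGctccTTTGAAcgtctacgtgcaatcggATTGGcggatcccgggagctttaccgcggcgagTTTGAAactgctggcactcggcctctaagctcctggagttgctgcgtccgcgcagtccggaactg
Rrm1: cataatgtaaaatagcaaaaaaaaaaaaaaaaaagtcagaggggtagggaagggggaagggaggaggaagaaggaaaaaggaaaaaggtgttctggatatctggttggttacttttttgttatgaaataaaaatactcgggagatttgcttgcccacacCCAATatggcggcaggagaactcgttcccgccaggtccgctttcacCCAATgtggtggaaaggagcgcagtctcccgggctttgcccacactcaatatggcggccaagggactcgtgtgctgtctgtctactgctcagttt
Cdt1: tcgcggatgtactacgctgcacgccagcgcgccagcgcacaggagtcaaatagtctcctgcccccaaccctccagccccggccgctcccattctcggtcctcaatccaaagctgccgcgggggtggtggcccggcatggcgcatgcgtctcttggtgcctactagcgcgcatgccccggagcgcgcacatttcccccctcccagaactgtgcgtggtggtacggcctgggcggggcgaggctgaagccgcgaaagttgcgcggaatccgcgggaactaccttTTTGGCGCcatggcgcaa

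The Top2a window held 6 CCAAT matches and 2 CHR matches, the nearer CHR beginning 23 bases before the start. Mki67 had 3 CCAAT and 2 CHR matches, and Cdk1 had 3 CCAAT matches, 2 CHR matches and 1 E2F match. The Rrm1 window held 2 CCAAT matches and no other, and the Cdt1 window held 1 E2F match and no other. A CHR was found in 27 of the 39 member windows (69.2%), against 30.6% of the 27025 genes in the promoter table. CCAAT was found in 30 members (76.9%), against 41.1% of all genes, and both elements together in 24 members (61.5%), against 13.4% of all genes. An E2F match was found in 9 members (23.1%), against 2.6% of all genes: Cdc6, Cdk1, Cdt1, Mcm3, Mcm5, Mcm6, Mcm7, Ncapg and Uhrf1. Cdk1, Mcm5, Ncapg and Uhrf1 held all 3 elements, and the windows used for E2f1, Melk, Nusap1 and Tyms held none. Only the annotated starts used here were searched, so a window without a match does not show that the gene lacks the element. These are letter matches and were not tested as binding sites.

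Across the 157 livers the cell cycle genes varied together weakly. The 990 pairs among the 45 members had a median Pearson correlation of 0.115, and 796 of them (80.4%) were positive. Over all 268551900 pairs of genes on the array the median was 0.009, and 52.4% were positive. The member correlations ran between -0.362 and 0.435. No member pair reached 0.5, and 52 pairs (5.25%) reached 0.3, against 3.44% of all gene pairs. When each array was centred on its own median, the member median was 0.0774 with 74.3% of pairs positive, against a median of -0.003 and 49% for all genes, and the share at 0.3 or above was 2.32% for members and 2.62% for all genes. All pairs share the same 157 arrays, and these correlations are descriptions.

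The members nearest to the common pattern came from several roles. Top2a (ENSMUSG00000020914_at), the topoisomerase that untangles replicated chromosomes, correlated at 0.635 with the mean score of the other 44 members, and Prc1 (ENSMUSG00000038943_at), which bundles microtubules of the central spindle, at 0.531. Racgap1, a component of the central spindle, followed at 0.493 and Mki67 (ENSMUSG00000031004_at), the gene of the Ki-67 proliferation antigen, at 0.480. Mcm5 of the replicative helicase had 0.467, cyclin A2 (Ccna2) 0.447 and the mitotic kinase Cdk1 0.446. In all, 28 members reached 0.3 and 2 reached 0.5. With arrays centred on their medians 16 reached 0.3 and 1 reached 0.5, and with component 1 over all genes removed, 18 and 2. Of the 23131 genes outside the list, without centring, 1645 (7.11%) reached 0.3 and 7 (0.0303%) reached 0.5, with a median of 0.0806 and a highest value of 0.580. Members have a part in defining the common pattern through one another, so this contrast is a description.

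**Figure D1:**
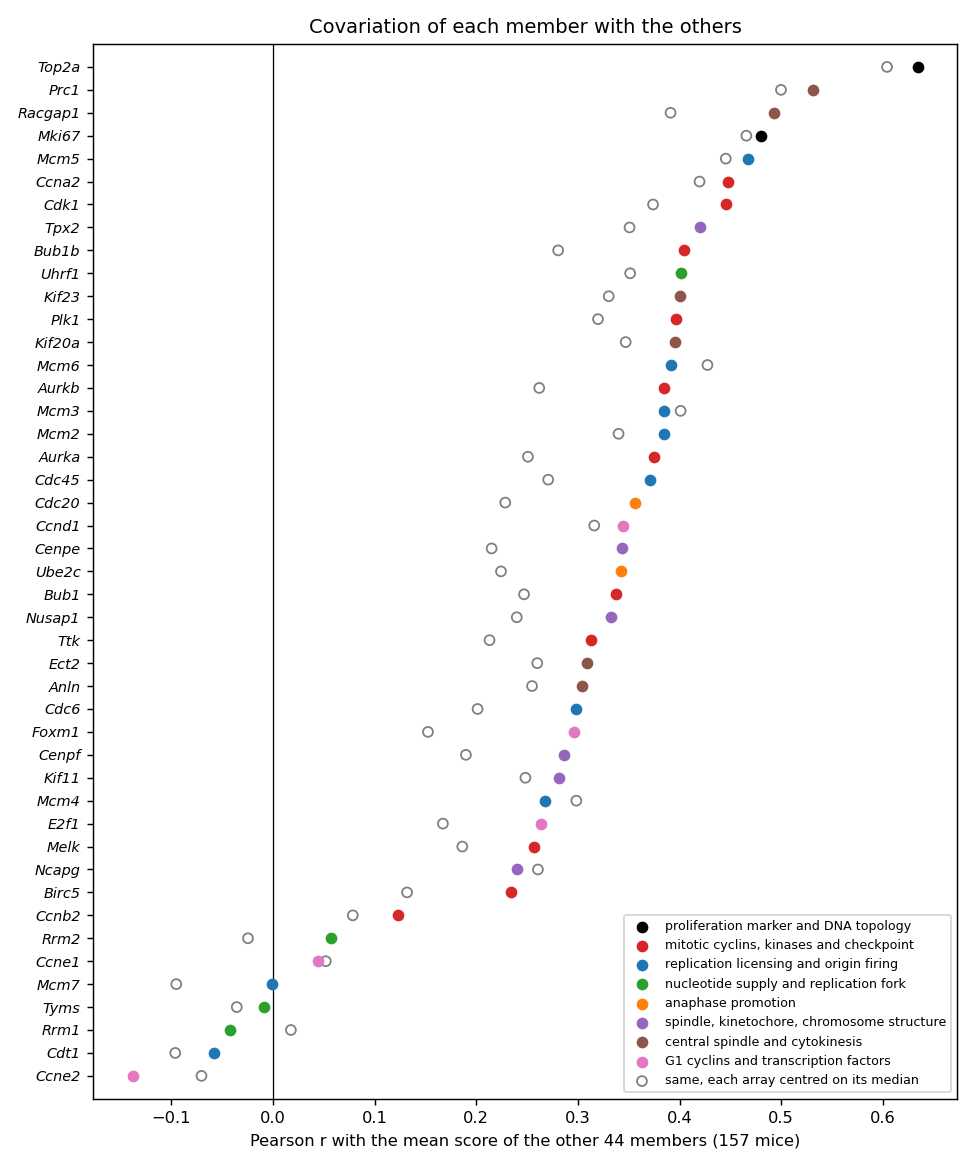
Correlation of each of the 45 members with the mean score of the other 44 over 157 mice, on the horizontal axis, with members in order of that value. Top2a leads at 0.635 and Prc1 follows at 0.531, and the 5 members below 0 are Mcm7, Tyms, Rrm1, Cdt1 and Ccne2.

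The last 8 members in the order also came from several roles: 3 of the 4 genes of nucleotide supply and the fork, 2 of the 9 licensing genes, both E cyclins and Ccnb2. Rrm2 (ENSMUSG00000020649_at) and Rrm1 (ENSMUSG00000030978_at), the small and large subunits of ribonucleotide reductase, correlated with the rest at 0.0575 and -0.0422, and Tyms, thymidylate synthase, at -0.0088. Cdt1, which loads the MCM helicase at origins, had -0.0575. Cyclin E1 (Ccne1) had 0.0440 and cyclin E2 (Ccne2) -0.138, and Ccne2 was negative with 31 of its 44 partners. The D cyclin Ccnd1 had 0.344 and E2f1, a transcription factor of S phase genes, 0.264. Cyclin B2 (Ccnb2), a partner of Cdk1, had only 0.123. The signs of these small values were not stable. Removing batch and cohort means turned Rrm1 (0.0360) and Cdt1 (0.0251), and centring the arrays turned Rrm1 (0.0177) and Rrm2 (-0.0245). Removing component 1 turned Rrm1 (0.234), Mcm7 (0.0729), Tyms (0.0677), Ccne2 (0.0354) and Ccnb2 (-0.0493).

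Members were also compared by role, on scores without centring. The correlation of single members with the array median ran between -0.287 (Ccne2) and 0.408 (Bub1b). Its part in the values by role was not tested. All 15 pairs among the 6 central spindle and cytokinesis genes were positive, with a median of 0.196, as were all 15 pairs among the 6 genes of spindle, kinetochore and chromosome structure, with a median of 0.151. Among the 11 mitotic cyclins, kinases and checkpoint genes, 48 of 55 pairs were positive (median 0.153). Licensing and origin firing genes had 29 of 36 positive pairs (median 0.0915), and the 4 genes of nucleotide supply and the replication fork 4 of 6 (median 0.0656). The 5 G1 cyclins and transcription factors had 6 of 10 positive pairs (median 0.0561), with Ccne1 and Ccne2 at 0.306 and Ccnd1 and E2f1 at 0.135. Mki67 and Top2a were positive with every one of the mitotic, spindle and cytokinesis genes (22, 12 and 12 pairs), but in only 5 of their 8 pairs with nucleotide and fork genes. Between the mitotic group and the nucleotide and fork group, 23 of 44 pairs were positive and the median was 0.0201.

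The MCM2-7 proteins form the ring of the replicative helicase and unwind DNA at the fork. Their 15 pairs had a median correlation of 0.269, and 12 were positive. Mcm2 correlated with Mcm3 at 0.367 and with Mcm6 at 0.360, Mcm3 with Mcm6 at 0.361 and with Mcm5 at 0.353, and Mcm5 with Mcm6 at 0.330. Mcm7 stood apart, with values between -0.0837 and 0.131 against the other MCM genes. Among kinases, Bub1b of the spindle checkpoint and Aurkb of the chromosomal passenger complex correlated at 0.382, and Cdk1 with the helicase cofactor Cdc45 at 0.370.

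**Figure D2:**
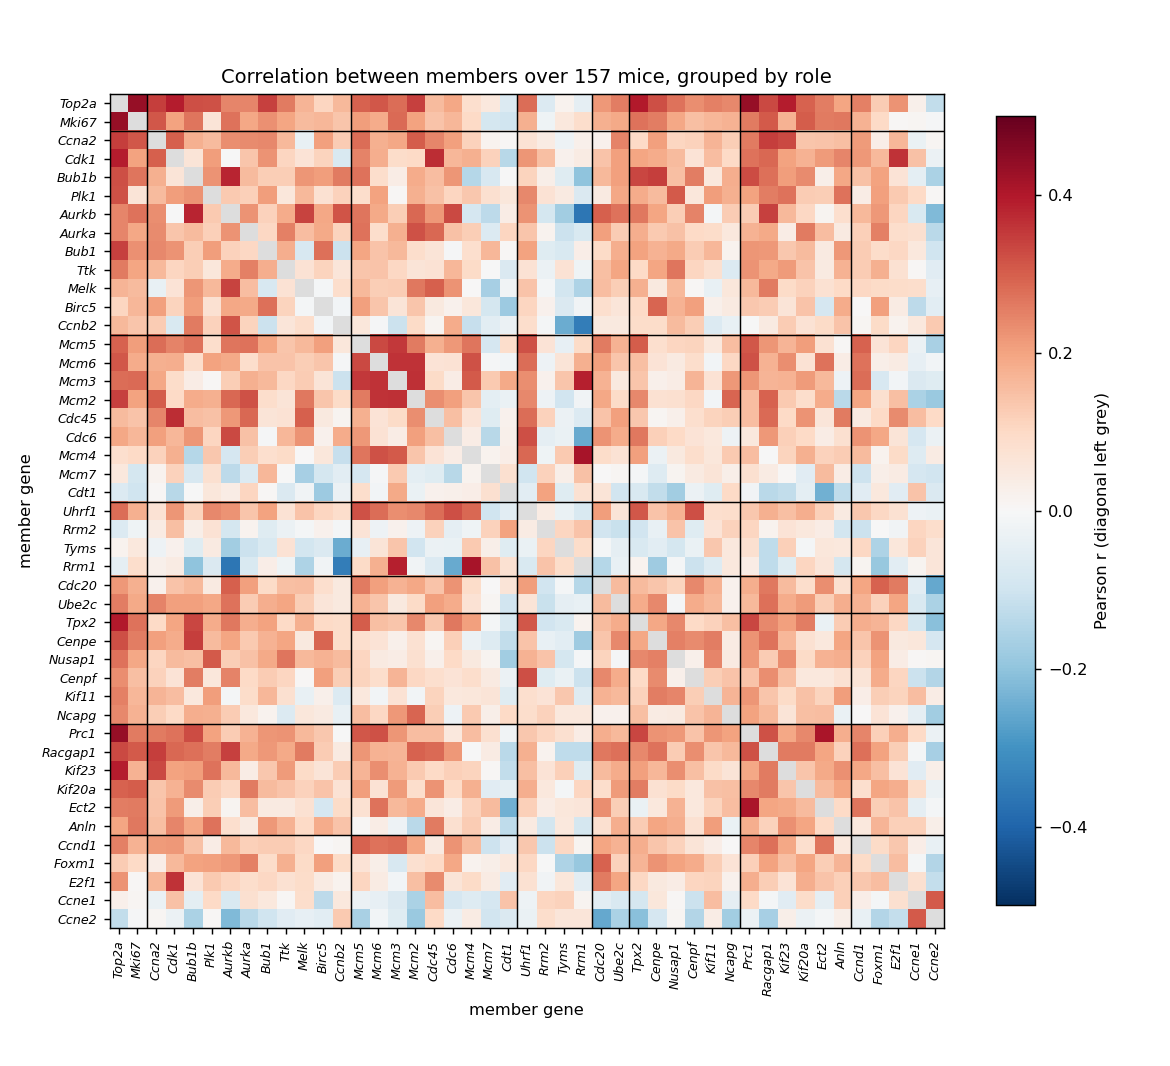
Pearson correlations over 157 mice between all 45 members, ordered by role, as a colour scale. All 15 pairs within the spindle group and all 15 within the cytokinesis group are positive, whereas Ccne2 gives a band with 31 of 44 values below 0.

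The highest and lowest pairs of the 990 were examined within batches. Top2a and Prc1 had r = 0.435 and Spearman's rho = 0.438, and were positive in 8 of 8 batches (0.232 to 0.529). Mki67 and Top2a had r = 0.434 and rho = 0.456, also positive in 8 batches (0.264 to 0.722). Both pairs kept these values within 0.01 when the 2 mice farthest from the median of the gene named first were left out (0.429 and 0.426). Prc1 and Ect2, a factor required for cytokinesis, had r = 0.409 and rho = 0.387, positive in 6 batches (-0.0824 to 0.728; 0.382 without the 2 farthest mice). Mcm4 and Rrm1 had r = 0.412 and rho = 0.364, positive in 7 batches (-0.218 to 0.688; 0.374 without the 2 farthest mice). Pairs at or beyond these 4 values made up 0.536%, 0.546%, 0.809% and 0.768% of all gene pairs.

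Rrm1 ran against 2 mitotic genes. With Aurkb it had r = -0.362 and rho = -0.329, negative in all but 1 batch (-0.530 to 0.224; -0.360 without the 2 farthest mice), and 0.528% of all gene pairs were at or below that value. With Ccnb2 it had r = -0.344 and rho = -0.307, negative in every batch (-0.550 to -0.0895; -0.304 without the 2 farthest mice), with 0.739% of all pairs at or below. These 6 pairs were picked as extremes of 990, and their two-sided permutation p-values are unadjusted: for r they were 1e-05, the smallest that the permutations could give, in 5 pairs and 3e-05 for Ccnb2 and Rrm1. For rho they lay between 1e-05 and 0.00012. Aurkb and Rrm1 both followed the main axis of variation over all genes (component 1, 12.1% of the variance), with correlations of 0.662 and -0.472, and their own correlation was -0.0745 once component 1 was removed. For Ccnb2 and Rrm1 it was then -0.199.

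For most members the closest gene was outside the list. Genes outside the list numbered 23131, against 45 in it, so a closest gene outside was likely for any member by number alone. The best partner among all genes was another member for 4 of 45. That share is larger than the share of the list among all genes, and the difference was not tested. The best correlation ran between 0.305 and 0.647 with a median of 0.432. Aurkb had the highest of these, with ENSMUSG00000057751_at. Outside the list ENSMUSG00000037544_at was highest with the mean member score at 0.580, and ENSMUSG00000029427_at lowest at -0.554; these identifiers were not paired with symbols here. The 63 member pairs on 1 chromosome had a median correlation of 0.125, and the 927 pairs on different chromosomes 0.115.

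Promoter elements were set beside the order of the members. Ccnb1 and Pcna have a window but no score and were left out of these counts. Of the 23 members with a promoter window that reached 0.3 with the rest, 19 held a CHR, 21 a CCAAT box and 5 an E2F match. Of the 14 below 0.3, 7 held a CHR, 7 a CCAAT box and 4 an E2F match. With arrays centred, 12 members with a window reached 0.3, of which 10 held a CHR, 12 a CCAAT box and 5 an E2F match. Of the 25 then below 0.3, 16 held a CHR, 16 a CCAAT box and 4 an E2F match. Top2a, Prc1, Mki67 and Cdk1 at the head of the order have CCAAT and CHR in the windows shown. Near its foot the members were divided. Rrm1 and Cdt1 have no CHR match in the windows shown, nor did Mcm7 and Tyms in theirs, whereas Ccnb2, Rrm2 and Ccne1 held one. The relation of these elements to the scores was not tested.

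Single livers differed in the mean score of the 45 members between -0.856 and 1.10, with a median of -0.0468. Of the 157 mice, 12 lay above 0.5 and 9 below -0.5. The highest liver was replicate 10 of cohort 6, where 24 members (53.3%) scored above 1, against 17.4% of all genes on that array. It had 2.08 for both Mki67 and Mcm5, 2.24 for Ccne2, 1.43 for Ccna2, 1.35 for Cdt1, 1.03 for Top2a, 0.0159 for Prc1 and -0.569 for Rrm1. Among the genes just listed, high scores fell on Mcm5, Cdt1 and Ccne2 as well as on the mitotic cyclin Ccna2, with Prc1 in the middle of its own range. Replicate 2 of cohort 2 had a mean of 0.913 with 24 members above 1, but 33.9% of all genes on its array were above 1, and its array was 1 of the 2 with the widest spread of scores. Replicate 5 of cohort 6 had a mean of 0.855 with 20 members above 1 (24.3% of all genes), and replicate 3 of cohort 10 a mean of 0.728 with 22 above 1 (31.2% of all genes). In the median mouse 6 members were above 1. In the lowest liver, replicate 3 of cohort 1, 19 members (42.2%) were below -1, against 26.4% of all genes on that array.

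The mean member score moved with properties of the whole array. Over the 157 mice it correlated at 0.560 with the array's median score, at 0.445 with component 1 and at 0.457 with component 2 (3.31% of the variance), and at 0.154 with the spread of scores on the array. The part of these in the differences between livers was not tested. By cohort the mean member score was highest in cohort 6 (0.283 ± 0.476, SD, n = 10) and lowest in cohort 1 (-0.160 ± 0.371, n = 20), and the cohorts overlapped widely.

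**Figure D3:**
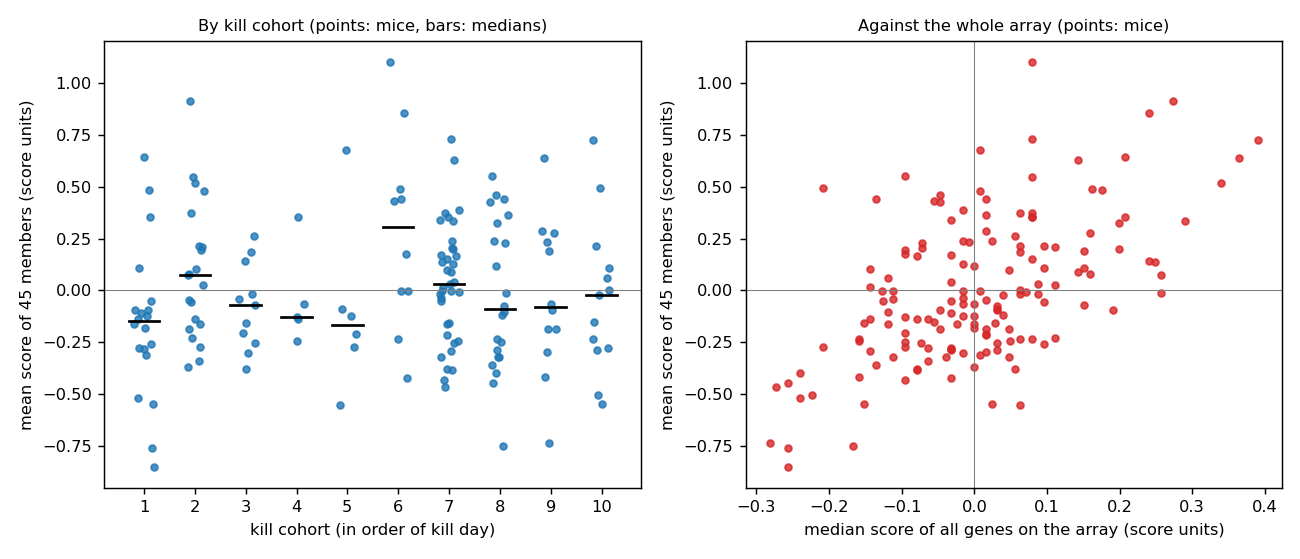
Mean score of the 45 members in each of 157 mice, by kill cohort with medians as bars (left) and against the median score of all genes on the same array (right), both in score units. Cohorts overlap, and the 2 values correlate at 0.560.

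Kill cohorts were compared for each gene with limma on the whole table, with hybridization batch as a covariate and p-values adjusted by the method of Benjamini and Hochberg over all 23176 genes. Cdt1 was the 1 member of 45 (2.22%) that differed between the 10 cohorts, against a background of 2.45% of all genes; without adjustment, 8 of 45 members (17.8%) and 16.8% of all genes had a p under 0.05. The share of members called lay near the background. Cdt1 (ENSMUSG00000006585_at), the licensing factor, was high in cohort 5: its 6 mice scored 1.95, 1.70, 0.855, 1.64, 1.48 and 1.77, a mean of 1.57 ± 0.382 (SD, n = 6). Every mouse of cohort 5 was above the medians of the other 9 cohorts, which lay between -0.517 (cohort 8) and 0.192 (cohort 7). The limma F was 3.37 with an adjusted p of 0.0251, and the adjusted p was 0.302 without cohort 5, 0.0547 without cohort 1 and 0.0914 without cohort 8. Ccne2 had the next smallest adjusted p among the members (0.0740), followed by Tpx2, a spindle assembly factor (0.101).

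Along kill day, with batch as a covariate, 0 of 45 members had a slope that passed the limma test, against 3.49% of all genes (1.13% upward and 2.36% downward). At an unadjusted p under 0.05 there were 3 members (6.67%), against 15.6% of all genes, and the statistic without moderation also called 0. Slopes of the members ran between -0.263 (Cdt1, SE 0.0898, adjusted p 0.0720) and 0.251 score units per 100 days (Ccne2, SE 0.0898, adjusted p 0.0943). Top2a had a slope of 0.101, Mki67 of 0.134, Cdk1 of 0.145 and Mcm4 of -0.192 with the same SE. Slopes were positive for 30 of 45 members with a median of 0.0386, against 52.5% and 0.00679 for all genes.

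Cohort 7, the largest of the later cohorts, was set against cohort 1, the first to be killed. Aurkb (ENSMUSG00000020897_at), the mitotic kinase of the chromosomal passenger complex, was higher in cohort 7 and was the 1 member called (2.22%), against 3.49% of all genes (0.997% higher and 2.5% lower). Its scores in cohort 7 ran between -1.77 and 1.95 with a median of 0.240 (37 mice), against -2.08 to 0.725 with a median of -0.607 in cohort 1 (20 mice). The groups overlapped, and all mice above 0.725 in this pair were of cohort 7. The limma difference was 0.993 ± 0.271 score units (SE, adjusted p 0.0200). It was positive in 7 of 7 batches that held both cohorts (0.399 to 2.09), with as few as 2 mice of a cohort in a batch. With component 1 as a further covariate the difference was 0.513 and the adjusted p 0.321.

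Other members differed less between cohorts 7 and 1. The estimate was positive in 34 of 45 members with a median of 0.319, against 56.9% and 0.0756 for all genes, and with each array centred on its median it was again positive in 34, with a median of 0.264, against 0.0205 for all genes. All 6 central spindle and cytokinesis genes had positive estimates (0.318 to 0.583), as did all 5 G1 cyclins and transcription factors (0.117 to 0.523); none of these 11 passed the test. Top2a had 0.366 and Mki67 0.347. Mcm5 had 0.666 (adjusted p 0.138), and the most negative estimate was that of Rrm1 at -0.759 (adjusted p 0.0847).

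Cohort 8 was set against cohorts 1 and 2. Against cohort 1, Ect2 (ENSMUSG00000027699_at) was the 1 member called and was higher in cohort 8, against a background of 2.83% of all genes (0.673% higher and 2.15% lower). Ect2 ran between -2.01 and 2.08 with a median of 0.691 in cohort 8 (22 mice), against -2.49 to 1.58 with a median of -0.469 in cohort 1. The difference was 0.978 ± 0.299 score units (SE, limma adjusted p 0.0415). It was positive in 6 of 7 batches (-0.208 to 2.57), with as few as 2 mice of a cohort in a batch. The 2 cohorts overlapped over most of the range. Estimates were positive for 31 of 45 members (median 0.149), against 51.7% of all genes (median 0.0157).

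Against cohort 2, Ccne2 was the 1 member called and was higher in cohort 8, against a background of 1.5% of all genes (0.828% higher and 0.673% lower). Ccne2 (ENSMUSG00000028212_at), which activates Cdk2 at the entry to S phase, ran between -2.24 and 2.49 with a median of 0.857 in cohort 8, against -1.86 to 0.855 with a median of -0.425 in cohort 2 (21 mice). The difference was 1.02 ± 0.297 score units (SE, limma adjusted p 0.0437). It was positive in 5 of 7 batches (-0.134 to 2.08), with as few as 1 mouse of cohort 2 in a batch. Without the 2 arrays of widest spread it was 0.989 with an adjusted p of 0.0561. Against cohort 1, which shares the cohort 8 mice with this contrast, Ccne2 had 0.819 with an adjusted p of 0.112. Here 15 of 45 members had positive estimates (median -0.161), against 39.7% of all genes (median -0.0939). By role, 1 of 9 licensing genes and 4 of 4 genes of nucleotide supply and the fork were positive, and none of these 13 passed the test. With each array centred on its median, 19 members were positive (median -0.0829, against -0.0160 for all genes), among them 2 of the 9 licensing genes.

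**Figure D4:**
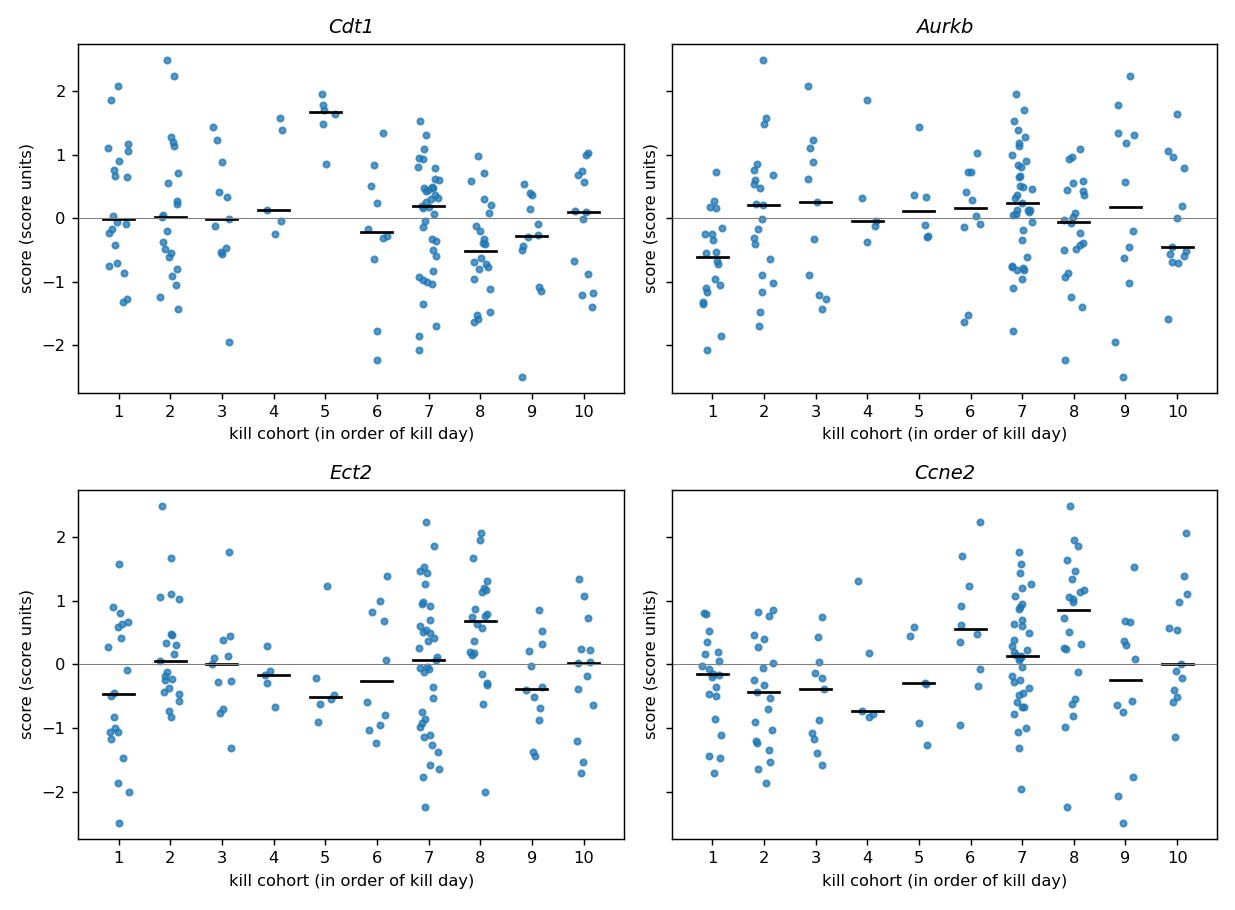
Scores of the 4 members called in a cohort comparison (Cdt1, Aurkb, Ect2 and Ccne2) in each mouse by kill cohort, in score units, with medians as bars. Cdt1 is high in all 6 mice of cohort 5, whereas for Aurkb (cohorts 7 and 1), Ect2 (8 and 1) and Ccne2 (8 and 2) the cohorts compared overlap.

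Between the 8 hybridization batches, with kill cohort as a covariate, 3 of 45 members (6.67%) differed, against 12.2% of all genes: Cdc20, an activator of the anaphase-promoting complex, Cdk1 and Foxm1, a transcription factor of G2 and mitotic genes. Cdc20 averaged 0.766 ± 1.01 in batch 3 (SD, n = 22) and -0.861 ± 0.706 in batch 8 (SD, n = 11), with a limma F of 3.67 and an adjusted p of 0.0143. Foxm1 was below 0 in all 11 mice of batch 8 (-2.49 to -0.0317, mean -1.12 ± 0.806), against a mean of 0.372 ± 1.10 in batch 3 (F 3.12, adjusted p 0.0322). Cdk1 averaged 0.464 ± 0.897 in batch 1 and -0.573 ± 0.796 in batch 6 (F 3.24, adjusted p 0.0272). Each call was lost under some alternatives. The adjusted p was 0.330 for Cdc20 without batch 3. It was 0.357, 0.0612 and 0.0561 for Foxm1 without batches 8, 3 and 5, and 0.129, 0.0873 and 0.0724 for Cdk1 without batches 6, 5 and 1. Centring each array on its median gave Foxm1 an adjusted p of 0.0686, component 1 as a covariate gave Cdc20 one of 0.0974, and leaving out the kill cohort covariate gave Cdk1 one of 0.0594.

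**Figure D5:**
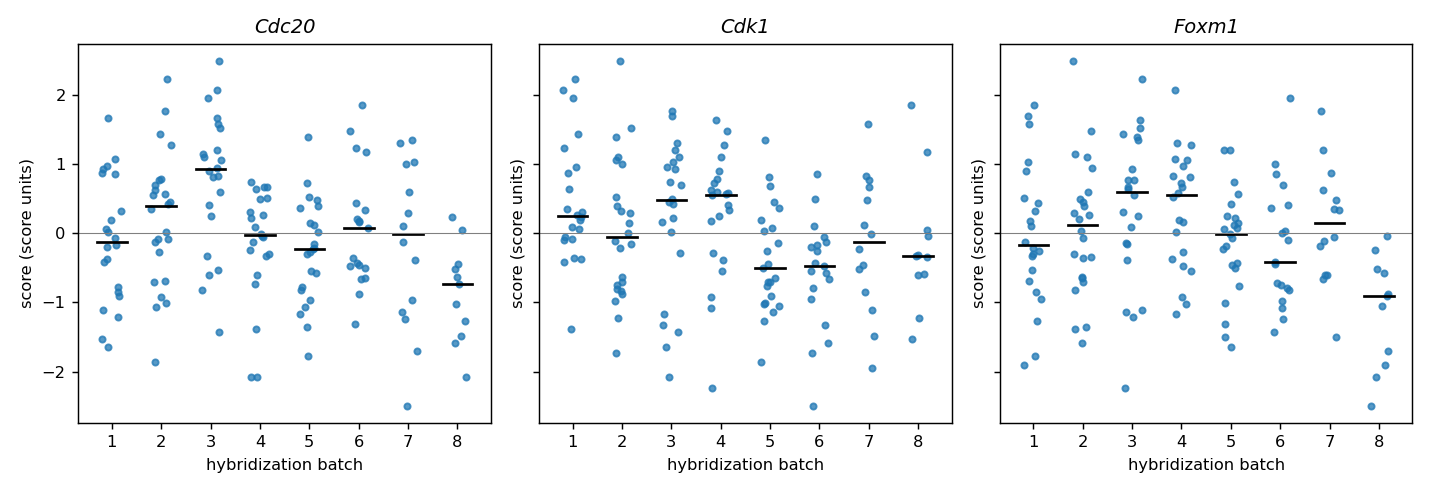
Scores of Cdc20, Cdk1 and Foxm1 in each mouse by hybridization batch, in score units, with medians as bars. Foxm1 lies below 0 in all 11 mice of batch 8, and Cdc20 has its highest median in batch 3 and its lowest in batch 8.

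Strain numbers fall into 6 blocks of 1000, whose meaning the labels do not state. With batch as a covariate, 0 of 45 members differed between blocks by limma's F test, against 0.652% of all genes, and the statistic without moderation also called 0. At an unadjusted p under 0.05 there were 5 members (11.1%), against 13.6% of all genes. Blocks and cohorts run largely in parallel, and with both in the fit none of the 4 cohort calls passed: the adjusted p was 0.413 for Cdt1, 0.239 for Aurkb, 0.724 for Ect2 and 0.624 for Ccne2. The estimate was then 0.527 score units for Ect2, 1.18 for Aurkb and 1.03 for Ccne2. For the contrasts of Aurkb, Ect2 and Ccne2, block and cohort cannot be told apart. The mice of cohort 5, where Cdt1 was high, came from several blocks that other cohorts also held.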

How the data were processed

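Liver RNA of 157 mice was hybridized to Affymetrix arrays. According to the design text, a custom CDF of Ensembl genes (NCBI 37, Ensembl 49) served to combine the probes. The tools RMA and affy are named per the submitters' processing notes, with no version. Each value in the deposited table is a score: for all 23176 genes they equal, within 5e-05, the normal quantile of the mouse's rank, a step that no label states. They hold no level, fold or spread, so no filter on dim genes was possible.

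Dates of kill at most 3 days apart formed 1 cohort, giving 10 cohorts from 18 dates. The design text gives 6 batches; the 8 numbers in the labels were followed here. Replicate numbers follow accession order and only name mice, and with a single mouse per strain, p-values measure the spread between mice of different strains. Linear models were fitted with limma 3.58.1 in R 4.3.3 (lmFit, eBayes with trend), after tests on simulated data. All genes share the same scale of scores and moderation pools the spread, so that SEs are nearly the same for every gene. The number of arrays limits the precision. Calls are at an adjusted p under 0.05. Correlations used Python 3.11.15 with numpy 2.4.6, and 100000 permutations for the 6 named pairs, whose p-values are not adjusted over the list.

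The members, their roles and the lists were chosen with earlier results of these data known. Symbols of the members came with the list. No table paired the other identifiers with symbols, so 3 further cell cycle lists and 9 lists of cell type markers were not used here, and which cell types moved with the members was not tested. Named genes were the members called in any test, the extremes of each estimate, the members leading or closing the order of correlations, and the extreme pairs; identifiers outside the list were narrowed to 3. Other genes are named as examples of their role. Alternatives were other scalings, covariates, tests, and leaving out cohorts, batches or mice.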

Additional observations from a re-analysis of the deposited data

Results flagged for a closer look

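In the smaller cohorts the highest and lowest mouse for a gene was set against the others by Dixon's test. The 75 groups tested did not cover each of the 45 members in every such cohort. Of these groups, 2 (2.67%) held a mouse apart, where chance alone gives about 1 in 20. Ect2 scored 1.24 in replicate 6 of cohort 5, with the nearest mouse at -0.208 and the lowest of the 6 at -0.902. The same mouse had a mean of 0.676 over the 45 members. Mcm5 scored -0.767 in replicate 4 of cohort 4, with the nearest mouse at 0 and the highest of the 5 at 0.248.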

How the results depend on the processing

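The median correlation between members lay between 0.0774 and 0.116 over all alternatives, and no called member changed its direction in the contrasts. The correlation of a member with the rest did turn its sign for 2 members with batch and cohort means removed, 2 with arrays centred and 5 with component 1 removed, all among the 8 lowest, and members at 0.3 or more numbered 23, 16 and 18 under these settings, in place of 28 (counted after seeing the data). With component 1 over all genes as a covariate, 3 members were called between cohorts (Cdt1, Tpx2 and Ccne2) in place of 1, 1 along kill day (Ccne2) in place of 0, 2 in cohort 8 minus 1 (Ect2 and Ccne2) in place of 1, 0 in cohort 7 minus 1 and in cohort 8 minus 2, and 2 between batches (Cdk1 and Foxm1) in place of 3. With strain block as a covariate, 0 members were called between cohorts and in each of the 3 contrasts, and of all genes 0 between cohorts, against 568, 3 in cohort 7 minus 1, against 810, 1 in cohort 8 minus 1, against 655, and 0 in cohort 8 minus 2, against 348. Between cohorts, 0 members were called without the batch covariate (Cdt1 adjusted p 0.0571), by the Kruskal-Wallis test (0.0593), without cohort 1 (0.0547), without cohort 8 (0.0914) and without cohort 5, and 2 (Cdt1 and Ccne2) with arrays centred or without cohort 10. Along kill day, 1 member (Ccne2) was called without cohort 9. In cohort 8 minus 2, 0 were called without the 2 widest arrays. Between batches, 1 was called without batch 3 (Cdk1) and 1 without batch 5 (Cdc20), in place of 3. Members at a correlation of 0.5 or more with the rest numbered 1, in place of 2, with arrays centred or quantile normalized. The cause of these changes was not tested. Leaving out each batch and cohorts 2 to 6, 9 and 10 in turn was chosen after seeing the data.

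Leaving out single mice of cohort 4 in turn left the counts at 1 to 1 between cohorts and in each contrast, 0 to 0 for the trend and for blocks and 3 to 3 for batches. Of the 127 values of single members under an alternative, 105 stayed on their side of the threshold and 22 no longer passed it. No paired analysis was possible because the numbers of replicates follow accession order and pair no mice. Rank scores keep no signal over background, so the share of members near the detection limit of the array is unknown.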
